A study of Mus musculus with 8 samples.

Results

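The 46 genes described here encode the machinery of regulated exocytosis and vesicle fusion: SNARE proteins, synaptotagmins, complexins, priming factors, Rab GTPases, vesicle membrane proteins and granule cargo. They were listed by symbol to ask which release machinery could serve acetylcholine, and all 46 had a row among the 53655 gene symbols measured. RNA was sequenced from tuft cells of the small intestine of naïve mice of genotype Il25-RFP/+;Chat-GFP(Tg+), which carry a red reporter for the cytokine gene Il25 and a green transgenic reporter for Chat, the gene of the acetylcholine-making enzyme choline acetyltransferase. Cells negative for CD45 and positive for EPCAM and for Il25-RFP were sorted into a gate with green signal (Chat-pos, 4 libraries) and a gate without it (Chat-neg, 4 libraries), so both gates share the genotype and the red signal and differ in the green one. The labels give neither the age of the mice nor which animals a library came from, so each p-value here reflects only how far libraries of 1 gate vary, and that variation may be technical.

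In regulated exocytosis, a vesicle carrying an R-SNARE (a VAMP) meets a syntaxin and a SNAP-25 family protein at the plasma membrane, and the SNAREs zip into a bundle that pulls the membranes together. Sec1/Munc18 proteins (Stxbp genes) and Munc13 proteins prepare the syntaxin, CAPS and RIM proteins and Rab3 and Rab27 GTPases tether and prime the vesicle, synaptotagmins and complexins couple fusion to calcium, and NSF with alpha-SNAP takes the used bundles apart. Neurons rely on Snap25, Stx1a, Vamp2, Syt1 and complexins, while epithelial and blood cells use relatives such as Snap23, Stx3, Stx4, Vamp3 and Vamp8. Tuft cells are chemosensory epithelial cells, and a part of them makes acetylcholine.

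The libraries held 1757401 to 2541955 counts in named genes in Chat-pos and 87642 to 1176880 in Chat-neg, so a single count was worth 0.393 to 0.569 CPM (counts-per-million) in Chat-pos and 0.85 to 11.4 CPM in Chat-neg, with the highest value in Chat-neg replicate 1. Of the 10 tuft cell markers checked, all averaged at least 5 CPM, and their summed level was 21764 to 22841 CPM in Chat-pos cells and 9412 to 16750 CPM in Chat-neg cells. The labelled cell type thus had its markers in every library, at a higher summed level in each Chat-pos library than in any Chat-neg one. Enterocyte markers summed to 33359 to 54957 CPM in Chat-pos cells and 21442 to 45843 CPM in Chat-neg cells, mostly Fabp1. Paneth cell markers reached 47842 and 27414 CPM in Chat-pos replicates 2 and 3, while Chat-pos replicates 1 and 4 held 549 and 421 CPM and the Chat-neg libraries 661 to 2830 CPM. Goblet cell markers summed to 306 to 1571 CPM in Chat-pos cells and 512 to 5526 CPM in Chat-neg cells. T cell and leukocyte markers summed to 7.47, 269.7, 11.8 and 5.47 CPM in Chat-pos replicates 1 to 4. In the Chat-neg libraries they summed to 173 to 351 CPM. The sums of Chat-pos replicate 2 and of the Chat-neg libraries were mostly Gzma. Of 6 mast cell markers Mcpt1 was at 0 and only Kit averaged 5 CPM or more, and the list summed to 85.6 to 149 CPM in Chat-pos cells and 11.6 to 88.2 CPM in Chat-neg cells. Neuron and glia markers summed to 8.03 to 19.8 CPM in Chat-pos cells and 4.32 to 139.6 CPM in Chat-neg cells, the highest in the shallow replicate 1. That highest sum included Ret at 69.8 CPM, from 6 counts. The Chat-pos sums were mostly Prph, at 6.14 to 17.7 CPM, against 0 to 3.82 CPM in Chat-neg cells. In sorted cells measured in bulk, fewer cells of a type and less RNA per cell cannot be told apart.

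A member counted as detected where its mean over the 8 libraries was at least 5 CPM of the counts in named genes. By that rule 28 of the 46 members were detected and 18 were not, and 19.4% of all symbols reached the same level. The detected ones were Stx3, Snap23 and Stx4a of 5 plasma membrane SNAREs, all 6 vesicle SNAREs, Syt11 alone of 8 synaptotagmins, Stxbp2, Stxbp3 and Stxbp5 of 5 assembly regulators, and all of 7 tethering and priming genes but Rims1. Scamp5 of 4 vesicle membrane proteins, all 5 Rab genes, Napa of the 2 alpha-SNAP family genes, and Chgb and Chga of 4 cargo genes completed them. Closest above the limit were Cadps at 5.27, Vamp1 at 5.63 and Unc13a at 6.10 CPM, and closest below it were Napb at 4.47, Stx1a at 3.81 and Syn1 at 3.01 CPM. Cadps and Vamp1 fell below 5 CPM when Chat-neg replicate 1 was left out, which left 26 detected, and Cadps and Unc13a did so when the counts of all libraries were pooled, which also left 26. As a measure of stray reads, 11 of 1739 olfactory and vomeronasal receptor genes, a class best known from sensory neurons, reached 5 CPM, with 8.45 CPM as the highest. The class held 397 to 657 reads in every library, so such reads weigh more in CPM in the Chat-neg libraries. Its summed level was 162 to 308 CPM in Chat-pos and 420 to 838 CPM in Chat-neg replicates 2 to 4. In the shallow Chat-neg replicate 1 it was 4621 CPM. Means over the 8 libraries of Cadps, Vamp1, Unc13a, Chga, Rab3b and Rab3a lie between 5 CPM and that highest receptor value of 8.45 CPM. Rab3a had 22, 28, 14 and 40 counts in Chat-pos replicates 1 to 4. In the shallower Chat-neg replicates 1 to 4 Rab3a had 0, 8, 5 and 1 counts. Its scaled levels overlapped between the gates, and its difference did not pass the test given below (edgeR adjusted p = 0.209).

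**Figure D1:**
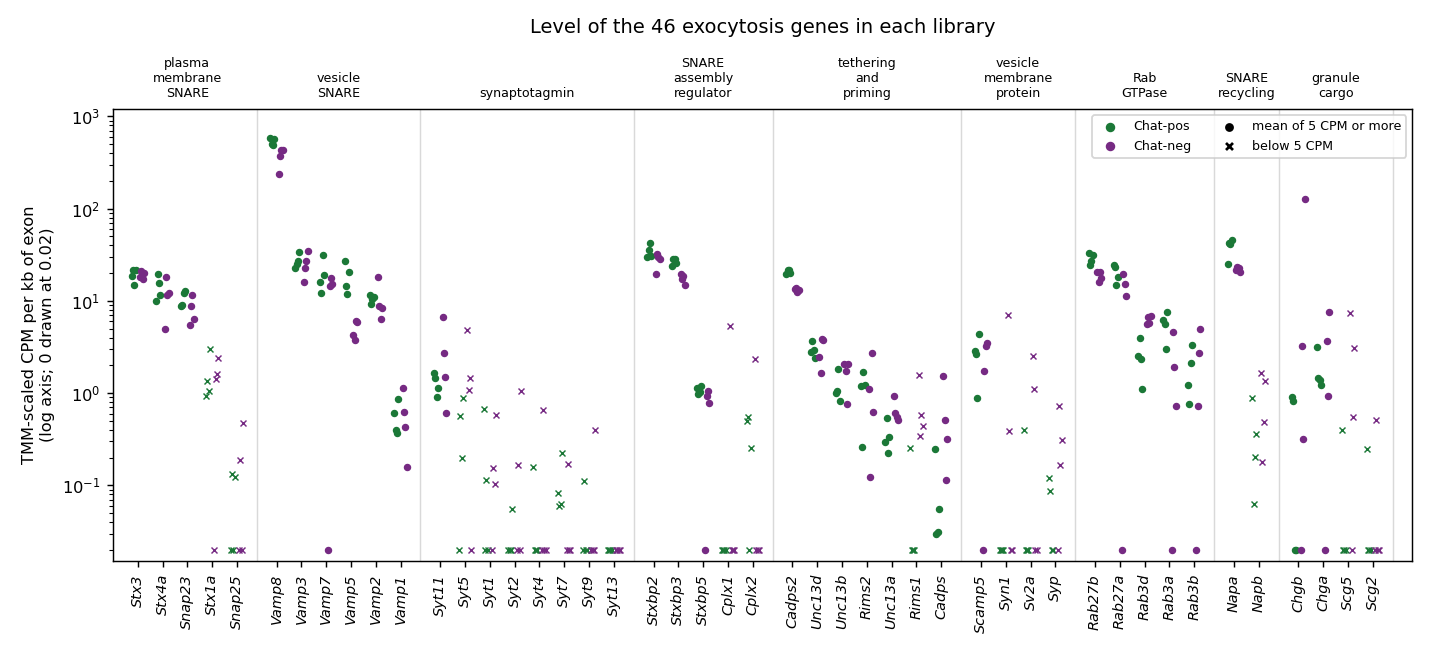
TMM-scaled CPM per kb of exon (log axis) of each of the 46 genes in each library, grouped by role and ordered by mean level within a role, with Chat-pos libraries left of Chat-neg ones. Vamp8 stands at 450.6 CPM per kb on average, more than any other member, while most synaptotagmins lie near 0.

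From here on, levels are CPM scaled by the TMM method, which corrects for differences in composition between libraries. Where counts are summed over a gate, the deeper Chat-pos libraries hold more at an equal level. The test compared Chat-pos with Chat-neg by edgeR's quasi-likelihood method over 8919 genes that passed a filter on low counts, with Benjamini-Hochberg adjustment over all of them and a threshold of 0.05. Of the members, 23 passed the filter, 3 of them were higher and 1 was lower in Chat-pos, and 19 did not pass the test. In all tested genes 3.62% were higher and 2.87% lower. That is 323 higher and 256 lower genes, against 225 higher and 380 lower when libraries were scaled by total count alone, a scaling that moved the median of all genes to -0.14 and under which Vamp5 was the only higher member. The median log2 difference was 0.27 over the 23 tested members and -0.02 over all 8919 genes. A positive difference was found in 16 of the 23 members (69.6%) and in 48.5% of all tested genes. Members were listed with earlier results known, so nothing further is read from these shares. Vamp5, Napa and Cadps2 rose and Rab3d fell, and of these calls only that of Vamp5 was kept in every fit that left out 1 library and under all 9 other settings tried.

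The 250 bases before the annotated start of these 4 genes are shown with those of Vamp8, the neighbour of Vamp5 and the member with the highest level (RefSeq, GRCm38.p6, 5′ to 3′ on the gene's strand). Capitals mark 2 motifs picked after the sequences were seen: the octamer core TTTGCAT or its complement ATGCAAA, which POU-domain factors bind, and the E-box CACGTG, its own complement. No motif overlapped another.
Vamp5, minus strand, chr6:72380469-72380718: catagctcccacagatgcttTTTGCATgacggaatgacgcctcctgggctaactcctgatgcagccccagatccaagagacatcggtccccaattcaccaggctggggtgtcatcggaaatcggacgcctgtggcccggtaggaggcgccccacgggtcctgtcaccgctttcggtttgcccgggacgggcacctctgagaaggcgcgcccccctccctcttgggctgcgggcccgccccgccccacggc
Napa, plus strand, chr7:16098330-16098579: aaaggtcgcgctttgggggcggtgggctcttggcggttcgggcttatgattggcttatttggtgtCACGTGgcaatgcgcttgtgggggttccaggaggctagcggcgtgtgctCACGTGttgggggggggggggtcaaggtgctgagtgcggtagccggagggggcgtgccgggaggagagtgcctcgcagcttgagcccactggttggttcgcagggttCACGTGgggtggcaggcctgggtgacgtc
Cadps2, minus strand, chr6:23839422-23839671: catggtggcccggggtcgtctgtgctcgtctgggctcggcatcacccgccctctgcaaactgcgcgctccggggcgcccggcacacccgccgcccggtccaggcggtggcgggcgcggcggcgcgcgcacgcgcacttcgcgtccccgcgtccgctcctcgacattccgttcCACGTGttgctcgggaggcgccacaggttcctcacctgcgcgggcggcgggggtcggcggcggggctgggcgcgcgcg
Rab3d, minus strand, chr9:21918184-21918433: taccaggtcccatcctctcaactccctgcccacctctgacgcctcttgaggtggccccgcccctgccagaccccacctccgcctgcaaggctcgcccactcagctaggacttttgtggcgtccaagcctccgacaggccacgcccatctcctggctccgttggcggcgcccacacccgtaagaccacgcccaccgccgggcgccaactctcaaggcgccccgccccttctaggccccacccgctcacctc
Vamp8, minus strand, chr6:72390668-72390917: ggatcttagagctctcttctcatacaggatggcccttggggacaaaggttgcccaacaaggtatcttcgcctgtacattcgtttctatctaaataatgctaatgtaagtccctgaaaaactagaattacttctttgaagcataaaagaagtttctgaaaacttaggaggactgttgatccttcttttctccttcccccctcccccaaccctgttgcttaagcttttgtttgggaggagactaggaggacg
The Vamp5 window holds 1 octamer core, 224 to 230 bases before the start. The Napa window holds 3 E-boxes and the Cadps2 window 1, and the windows of Rab3d and Vamp8 hold neither motif. The starts used here are those of RefSeq, and the GENCODE gene spans given below differ for Napa, Rab3d and Vamp8. In GENCODE Napa starts at 16098458, inside its window, so the E-box 24 to 29 bases before the RefSeq start lies within that span. The windows of Rab3d and Vamp8 also reach into their GENCODE spans. Windows of this length hold an octamer core in 4.12% and an E-box in 6.02% of the 32851 promoters in the table. For the 35 members with an entry, 2 of 39 windows had an octamer core and 5 had an E-box. The sequence of Vamp8 has 43.6% G or C, against 65.6% to 78% for Napa, Cadps2 and Rab3d and 66% for Vamp5.

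Vamp8 encodes the R-SNARE known as endobrevin, which serves granule release in exocrine, mast and other blood cells. Its level was 1341, 1166, 1125 and 1314 CPM in Chat-pos replicates 1 to 4, against 547, 864, 990.1 and 985 CPM in Chat-neg replicates 1 to 4. The groups did not overlap, and the lowest library was the shallow Chat-neg replicate 1. The mean was 1236 ± 107 CPM in Chat-pos cells and 846 ± 208 CPM in Chat-neg cells (SD, n = 4 each), and the log2 difference of 0.53 ± 0.21 (SE) did not pass (edgeR adjusted p = 0.139). Per kb of exon, Vamp8 lay at the 99.7th percentile of all genes with a known length. It made up 87.5 ± 1.49% of the summed level per kb of the 6 vesicle SNAREs in Chat-pos and 87.2 ± 1.22% in Chat-neg.

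Vamp5, or myobrevin, is a small VAMP best known from muscle and from the plasma membrane, and its part in fusion is less clear than that of its relatives. It was at 74.0, 39.4, 32.1 and 55.5 CPM in the Chat-pos libraries, against 11.6, 10.2, 16.4 and 16.0 CPM in the Chat-neg libraries. Every Chat-pos library lay above every Chat-neg one, and the Chat-neg values rest on 1, 8, 19 and 10 counts, those of Chat-pos on 68 to 132. The mean was 50.3 ± 18.6 CPM in Chat-pos cells and 13.6 ± 3.13 CPM in Chat-neg cells (SD, n = 4 each), and Vamp5 rose by 1.81 ± 0.34 (SE) on the log2 scale ( edgeR adjusted p = 0.00114). With 1 library left out the difference ran from 1.58 to 2.00 and the adjusted p from 0.00108 to 0.0175. Its share of the vesicle SNARE level per kb was 2.09% to 4.15% in Chat-pos and 0.887% to 1.55% in Chat-neg. Vamp5 (GRCm38 chromosome 6, 72368794 to 72380468) and Vamp8 (72385223 to 72390703) both lie on the minus strand, 4754 bp apart with no exons in common.

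The other vesicle SNAREs gave no call. Vamp3 or cellubrevin, which serves recycling endosomes, averaged 78.7 ± 14.3 CPM in Chat-pos cells and 72.5 ± 22.1 CPM in Chat-neg cells (log2 difference 0.03 ± 0.23, edgeR adjusted p = 0.967). Vamp2, the synaptic vesicle VAMP, averaged 40.1 ± 3.69 CPM in Chat-pos cells and 39.8 ± 20.4 CPM in Chat-neg cells (0.31 ± 0.29, edgeR adjusted p = 0.600). Vamp7, which serves lysosome-related fusion, stood at 0.41 ± 0.33 and had 0 counts in Chat-neg replicate 1, a depth at which up to 34.2 CPM could go unseen. Vamp1 was at 3.78 to 8.84 CPM in Chat-pos cells and 1.60 to 11.6 CPM in Chat-neg cells and was too low to be tested.

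At the plasma membrane the syntaxin with the highest level was Stx3, the apical syntaxin of epithelial cells. It was at 105, 123, 84.1 and 122 CPM in the Chat-pos libraries, against 105, 121, 99.3 and 116 CPM in the Chat-neg libraries. These ranges overlap almost wholly, with means of 109 ± 18.3 CPM in Chat-pos cells and 110.1 ± 9.92 CPM in Chat-neg cells (SD, n = 4 each) and a log2 difference of -0.03 ± 0.21 (edgeR adjusted p = 0.995). Stx4a, the basolateral syntaxin, averaged 33.6 ± 10.3 CPM in Chat-pos cells and 27.9 ± 13.0 CPM in Chat-neg cells (0.09 ± 0.30, edgeR adjusted p = 0.906). Snap23, the widely expressed relative of SNAP-25, averaged 46.01 ± 8.82 CPM in Chat-pos cells and 34.7 ± 12.0 CPM in Chat-neg cells (0.27 ± 0.27, edgeR adjusted p = 0.626). Its neuronal relative Snap25 had 4 counts in the Chat-pos libraries together and 3 in the Chat-neg libraries. Snap23 thus took at least 93.1% of the pair's level per kb in every library. Stx1a, the neuronal syntaxin, had 37 counts in Chat-pos and 12 in Chat-neg. Its means were 4.23 ± 2.55 CPM in Chat-pos cells and 3.64 ± 2.67 CPM in Chat-neg cells.

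Of the Sec1/Munc18 genes, Stxbp2 (Munc18-2), the partner of Stx3 and Stx11 in epithelial and blood cells, was at 124, 148, 177 and 126 CPM in the Chat-pos libraries, against 81.4, 134, 125 and 117 CPM in the Chat-neg libraries. The groups overlapped, and the log2 difference of 0.26 ± 0.20 did not pass (edgeR adjusted p = 0.513). Stxbp3 (Munc18c), the partner of Stx4, averaged 142 ± 12.1 CPM in Chat-pos cells and 93.4 ± 11.2 CPM in Chat-neg cells (SD, n = 4 each). Its groups did not overlap, yet the difference of 0.63 ± 0.20 lay just outside the threshold (edgeR adjusted p = 0.0540). Stxbp5 or tomosyn, an inhibitor of SNARE assembly, was far lower, at 17.9 ± 1.64 CPM in Chat-pos cells and 11.3 ± 7.78 CPM in Chat-neg cells (0.32 ± 0.40). The complexins, clamps of the neuronal fusion complex, were not detected: Cplx2 had 13 counts in Chat-pos and 1 in Chat-neg, and Cplx1 had 0 in Chat-pos and 1 in Chat-neg.

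Cadps2 (GRCm38 chromosome 6, 23262773 to 23839421, minus strand) encodes CAPS2, a priming factor of dense-core vesicles, and was the leading priming gene. It was at 185, 206, 206 and 192 CPM in the Chat-pos libraries, against 128, 131, 118 and 125 CPM in the Chat-neg libraries. The groups were far apart for their spread, at 197 ± 10.5 CPM in Chat-pos cells and 126 ± 5.52 CPM in Chat-neg cells (SD, n = 4 each). Cadps2 rose by 0.66 ± 0.19 on the log2 scale (edgeR adjusted p = 0.0368). That call was kept in 2 of the 8 fits with 1 library removed (Chat-neg replicate 1 in one, Chat-pos replicate 1 in the other), and the difference ran from 0.64 to 0.71 over the 8. Its neuronal relative Cadps had 10 counts in Chat-pos (1.37 ± 1.58 CPM) and 13 in Chat-neg (9.36 ± 9.58 CPM). Cadps2 thus took at least 98.7% of the pair's level per kb in Chat-pos and 96.4% to 99.1% in Chat-neg replicates 2 to 4. In the shallow Chat-neg replicate 1 that share was 89.6%, with 2 counts of Cadps.

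The Munc13 genes, whose products open syntaxin for assembly, each averaged less than Cadps2 in both gates. Unc13b averaged 26.9 ± 10.3 CPM in Chat-pos cells and 37.5 ± 13.9 CPM in Chat-neg cells (log2 difference -0.35 ± 0.34), and Unc13d (Munc13-4), which serves granule release in lymphocytes, 13.8 ± 2.37 CPM in Chat-pos cells and 13.8 ± 5.04 CPM in Chat-neg cells (-0.06 ± 0.42). Neither passed the test. Unc13a, the main form at synapses, was at 2.84 to 6.72 CPM in Chat-pos cells and 6.42 to 11.6 CPM in Chat-neg cells, from 37 and 19 counts, and was not tested. Rims2, a RIM scaffold, varied widely within each gate, at 12.4, 2.69, 17.5 and 12.6 CPM in Chat-pos cells and 11.6, 1.27, 28.5 and 6.42 CPM in Chat-neg cells. Rims1 had 3 counts in Chat-pos, all in replicate 1, and 10 in Chat-neg.

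Among the Rab genes Rab27b, which steers secretory granules to the plasma membrane, was the most abundant. It was at 351, 261, 292 and 332 CPM in the Chat-pos libraries, against 221, 169, 221 and 188 CPM in the Chat-neg libraries. No Chat-neg library reached the lowest Chat-pos one, and the means were 309 ± 40.4 CPM in Chat-pos cells and 199.8 ± 25.6 CPM in Chat-neg cells (SD, n = 4 each). The log2 difference of 0.64 ± 0.20 lay just outside the threshold (edgeR adjusted p = 0.0508). Rab27a, which works in melanosome and lytic granule transport, averaged 78.6 ± 17.7 CPM in Chat-pos cells and 44.3 ± 32.3 CPM in Chat-neg cells (0.53 ± 0.30, edgeR adjusted p = 0.338), with 0 counts in Chat-neg replicate 1. Per kb of exon Rab27b made up 51.0% to 64.9% of the pair in Chat-pos and 45.0% to 61.2% in Chat-neg replicates 2 to 4.

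Rab3d, the Rab3 of exocrine granules, was at 10.6, 16.6, 9.92 and 4.63 CPM in the Chat-pos libraries, against 23.3, 28.03, 24.2 and 28.9 CPM in the Chat-neg libraries. Every Chat-pos library lay below every Chat-neg one, and the values rest on 86 counts in Chat-pos and 70 in Chat-neg. With means of 10.4 ± 4.89 CPM in Chat-pos cells and 26.1 ± 2.78 CPM in Chat-neg cells (SD, n = 4 each), it fell by 1.35 ± 0.41 on the log2 scale (edgeR adjusted p = 0.0423). The call was kept in 2 of the 8 fits with 1 library removed (Chat-neg replicate 1 in one, Chat-pos replicate 2 in the other), and over the 8 the adjusted p ran from 0.0260 to 0.159. Rab3a, the Rab3 of synaptic vesicles, was at 12.4 ± 4.27 CPM in Chat-pos cells and 4.03 ± 4.48 CPM in Chat-neg cells, a log2 difference of 1.25 ± 0.58 that did not pass (edgeR adjusted p = 0.209). Rab3b, a close relative, was at 6.60 ± 4.00 CPM in Chat-pos cells and 7.42 ± 7.91 CPM in Chat-neg cells (-0.43 ± 0.61, edgeR adjusted p = 0.756). Of the summed level per kb of Rab3a, Rab3b and Rab3d, Rab3d thus took 9.19% to 38.2% in Chat-pos cells, against 54.6% to 55.8% in Chat-neg replicates 2 to 4. In Chat-neg replicate 1 that share was 100%, from 2 counts. Rab3d lies on chromosome 9, 21907491 to 21918192, in GRCm38, and goblet and Paneth markers, whose cells also hold granules, differed between these libraries as given above. The part of such cells in its level was not tested.

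Napa (GRCm38 chromosome 7, 16098458 to 16117975, plus strand) encodes alpha-SNAP, which brings the ATPase NSF to used SNARE bundles. It was at 94.6, 161, 155 and 175 CPM in the Chat-pos libraries, against 81.4, 89.2, 86.3 and 77.0 CPM in the Chat-neg libraries. The groups did not overlap, though Chat-pos replicate 1 lay close to the Chat-neg libraries. The means were 146 ± 35.4 CPM in Chat-pos cells and 83.5 ± 5.37 CPM in Chat-neg cells (SD, n = 4 each), and Napa rose by 0.80 ± 0.22 on the log2 scale (edgeR adjusted p = 0.0233). The call was kept in 2 of the 8 fits with 1 library removed, the same as for Cadps2. Without the Paneth-rich Chat-pos replicates 2 and 3 Napa, Cadps2 and Rab3d did not pass, with log2 differences of 0.79, 0.70 and -1.72 that were close to or larger in size than those with all libraries (edgeR adjusted p = 0.120, 0.136 and 0.0534). Vamp5 did pass in that smaller set, and so did Rab27b. Napb, the form of the nervous system, had 20 counts in Chat-pos and 12 in Chat-neg.

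**Figure D2:**
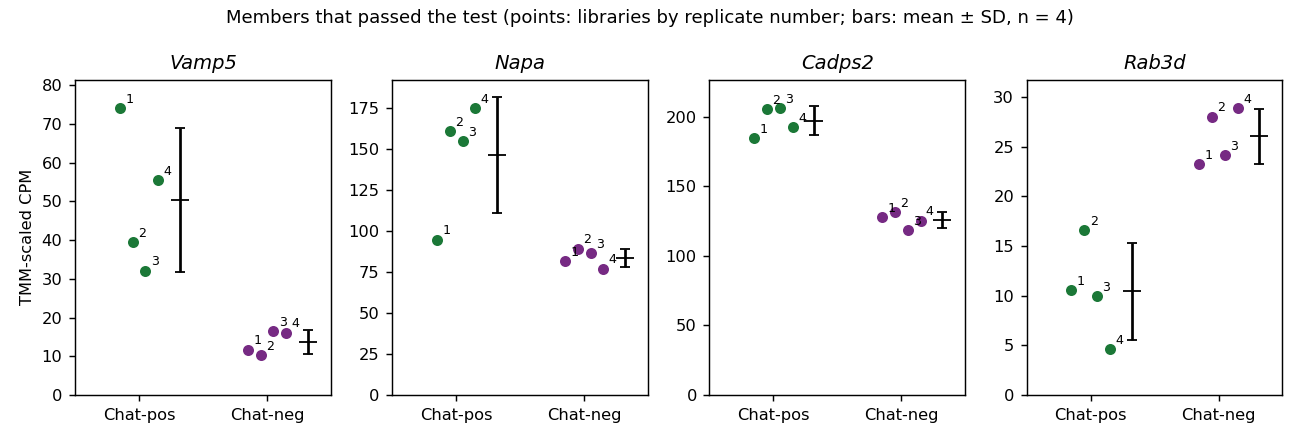
TMM-scaled CPM of Vamp5, Napa, Cadps2 and Rab3d in each library (points, with replicate numbers), Chat-pos left and Chat-neg right, and the mean ± SD of each group (bars, n = 4). The groups do not overlap in any of the 4 genes, and for Napa the closest pair is Chat-pos replicate 1 at 94.6 CPM and Chat-neg replicate 2 at 89.2 CPM.

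Counting all 23 tested members, 7 had groups that did not overlap: Vamp5, Napa, Cadps2, Rab27b, Stxbp3, Vamp8 and Rab3d. Over all tested genes that was so for 14.0%. The filter keeps a gene that is high in either group, and members were listed with earlier results known, so these counts describe the genes and support nothing further.

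**Figure D3:**
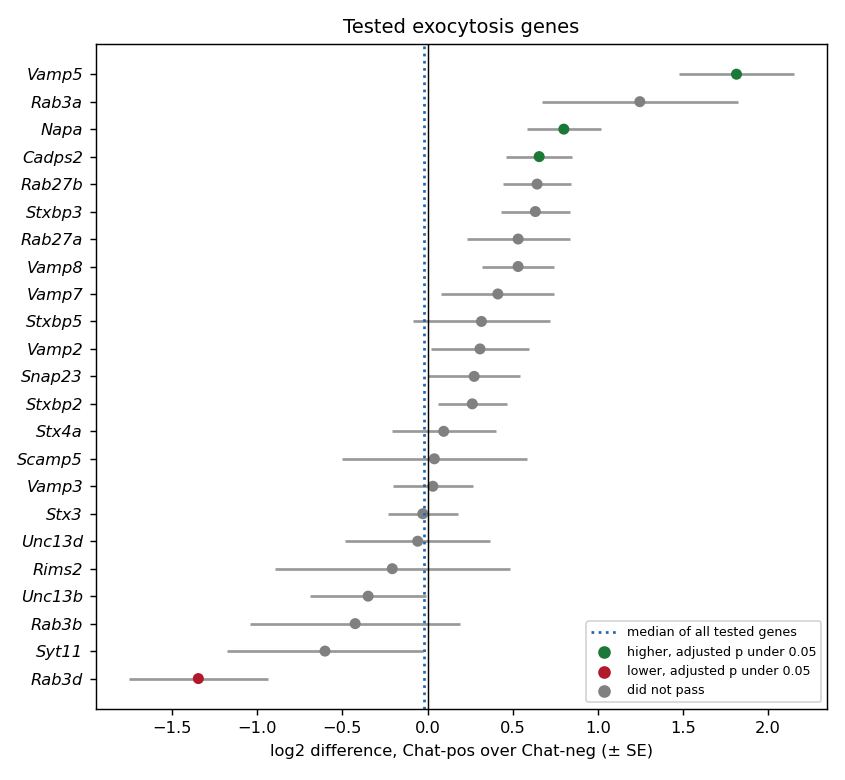
Log2 difference of Chat-pos over Chat-neg (± SE) of the 23 tested members, ordered by size, with the median of all tested genes as a dotted line. Vamp5 stands highest at 1.81 and Rab3d lowest at -1.35, and grey points did not pass the test.

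The calcium sensors of synaptic release were nearly absent from both gates. Syt11, a synaptotagmin that does not bind calcium, was at 8.71, 7.62, 4.73 and 5.89 CPM in the Chat-pos libraries, against 34.9, 14.01, 7.77 and 3.21 CPM in the Chat-neg libraries. The highest value rests on 3 counts in Chat-neg replicate 1, the groups overlapped, and the log2 difference of -0.60 ± 0.58 did not pass (edgeR adjusted p = 0.613). Syt1 and Syt2, the fast sensors of synapses, had 11 and 1 counts in Chat-pos and 5 and 6 in Chat-neg. Single libraries held most of these: 9 of the Syt1 counts were in Chat-pos replicate 1 (5.60 CPM) and 3 in Chat-neg replicate 4, which also held 5 of the Syt2 counts (8.02 CPM). Syt7, a slow sensor also used outside neurons, had 7 counts in Chat-pos and 1 in Chat-neg. Syt4, Syt5 and Syt9 had 1, 9 and 1 counts in Chat-pos and 2, 7 and 1 in Chat-neg. Syt13 had none in any library, which over all counts in named genes allows up to 0.26 CPM.

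Vesicle membrane proteins were also low. Scamp5, a secretory carrier membrane protein of neurons, was at 10.6, 9.86, 3.31 and 16.4 CPM in the Chat-pos libraries, against 0, 6.37, 12.1 and 12.8 CPM in the Chat-neg libraries, and the groups overlapped (log2 difference 0.04 ± 0.54, edgeR adjusted p = 0.984). Synaptophysin (Syp) had 2 counts in Chat-pos and 5 in Chat-neg, and the vesicle protein gene Sv2a had 3 in Chat-pos and 5 in Chat-neg. Synapsin 1 (Syn1), which tethers synaptic vesicles, had 0 counts in Chat-pos and 3 in Chat-neg, of which 2 came from the shallow Chat-neg replicate 1, where they amount to 23.3 CPM.

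The granule cargo genes encode proteins that endocrine cells pack into dense-core vesicles. Chgb (chromogranin B) was at 2.49, 2.24, 0 and 0 CPM in the Chat-pos libraries, against 0, 8.92, 0.863 and 345 CPM in the Chat-neg libraries. Of its 232 counts in all, 215 came from Chat-neg replicate 4. Chga (chromogranin A) was highest in the same library, at 20.9 CPM, with 3.37 to 8.71 CPM in Chat-pos, against 0 to 10.2 CPM in the other Chat-neg libraries. Of the 17 enteroendocrine markers, 3 picked after their values were seen were also highest there: Tac1 stood at 239 CPM, Tph1 at 43.3 CPM and Neurod1 at 27.3 CPM, and the highest value of any of them in another library was 11.6 CPM, a single count of Tac1 in Chat-neg replicate 1. In that same Chat-neg replicate 4, 8 other markers of the list (Gcg, Cck, Gip, Ghrl, Nts, Pyy, Neurog3 and Rfx6) had 0 counts, and Gcg and Cck stood at 14.01 and 15.3 CPM in Chat-neg replicate 2. The part of endocrine cells in the Chgb level was not tested. Summed over the enteroendocrine markers without Sct, the level was 7.57 to 36.7 CPM in Chat-pos cells and 12.9 to 332 CPM in Chat-neg cells, the highest sum being mostly Tac1. Sct, the secretin gene, was high in both gates, at 1206 to 1890 CPM in Chat-pos cells and 570.1 to 969 CPM in Chat-neg cells. None of the cargo genes passed the filter. Scg2 and Scg5 had 1 count each in Chat-pos, and 1 and 5 in Chat-neg.

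**Figure D4:**
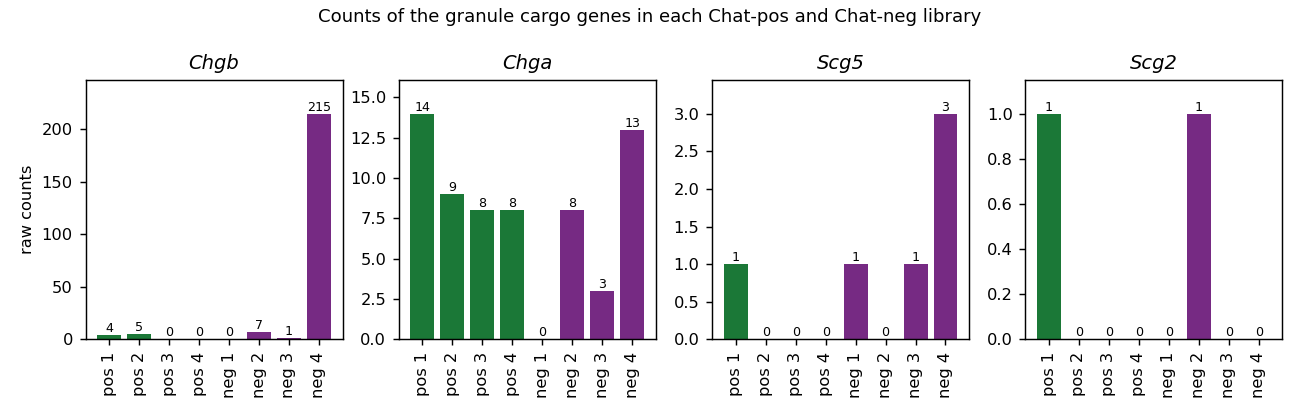
Raw counts of the 4 granule cargo genes in each Chat-pos library (left bars of each panel) and each Chat-neg library (right bars). Chgb has 215 counts in Chat-neg replicate 4 and at most 7 in any other library.

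Other genes of the pathway were read from 7 further lists with 120 genes in the table, of which 56 were tested. Calhm3 and Chat were called higher in Chat-pos and none was called lower, where 6.49% of all tested genes were called in either direction. Nothing is read from that count, since Chat is the gene whose reporter set the gates and Calhm3 passed the filter only through Chat-pos. The remaining secretory SNAREs and regulators had 0 of 7 tested called, with Nsf, the ATPase that works with alpha-SNAP, at 122 ± 15.9 CPM in Chat-pos cells and 95.5 ± 34.7 CPM in Chat-neg cells (log2 difference 0.26 ± 0.22) and Snap29 at -0.15 ± 0.29. Of the tested genes 0 of 3 C2 sensors, 0 of 9 Rab effector and active zone genes, 0 of 8 exocyst subunits, 0 of 6 vesicle membrane and cargo genes and 0 of 18 SNAREs of the ER, Golgi and endosomes were called. The 2 most abundant tested genes of each of these lists were Rab11a (0.48 ± 0.21), Use1 (0.45 ± 0.22), Syngr2 (0.19 ± 0.22), Stx7 (0.30 ± 0.21), Sypl (0.56 ± 0.26), Rab8a (0.22 ± 0.21), Esyt2 (0.61 ± 0.25), Exoc3 (0.20 ± 0.26), Exoc5 (0.62 ± 0.28) and Esyt1 (0.16 ± 0.28), as log2 differences with SE, with edgeR adjusted p from 0.145 for Esyt2 to 0.803 for Esyt1.

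Chat itself, the check of the green gate, was at 315, 290, 356 and 361 CPM in the Chat-pos libraries, against 105, 113, 150.2 and 101 CPM in the Chat-neg libraries, with no overlap (log2 difference 1.46 ± 0.21, edgeR adjusted p = 6.28e-05). Il25, the gene of the red reporter, was higher in Chat-pos too (1.12 ± 0.26, edgeR adjusted p = 0.00884). Slc18a3, the transporter that loads acetylcholine into vesicles, was at 9.95, 16.6, 6.14 and 21.5 CPM in the Chat-pos libraries, against 23.3, 1.27, 10.4 and 14.4 CPM in the Chat-neg libraries, and the groups overlapped (0.53 ± 0.56, edgeR adjusted p = 0.653). Its span lies inside that of Chat, on the same strand. Calhm3, a subunit of the channel through which taste cells release ATP without vesicles, was at 12.4, 17.5, 8.03 and 19.8 CPM in the Chat-pos libraries, against 0, 0, 0 and 1.60 CPM in the Chat-neg libraries. It had 123 counts in Chat-pos and 1 in Chat-neg, so it passed the filter on low counts only through Chat-pos and its values are given as a description, while its channel partner Calhm1 had 4 counts in Chat-pos and 0 in Chat-neg, too few to be tested. Without Chat-pos replicate 1, 2 or 4 Calhm3 did not pass the filter on low counts and was not tested. Panx1, a channel that also releases ATP, averaged 10.4 ± 3.01 CPM in Chat-pos cells and 16.8 ± 7.36 CPM in Chat-neg cells (-0.60 ± 0.46, edgeR adjusted p = 0.507).

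The plot of adjusted p by setting shows how the calls hold. Vamp5 stayed under 0.05 in all 8 fits with a library left out and under the 9 other settings, with 0.0175 as the highest value. Cadps2, Rab3d and Napa each did so in 2 of the 8 fits, and Rab27b and Stxbp3 in 1, the fit without the shallow Chat-neg replicate 1. Under the 9 other settings Napa passed in 7, Rab3d in 6, Cadps2 in 5, Rab27b in 4 and Stxbp3 in 3. Vamp8 passed under 1 setting, DESeq2, at an adjusted p of 0.0491.

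**Figure D5:**
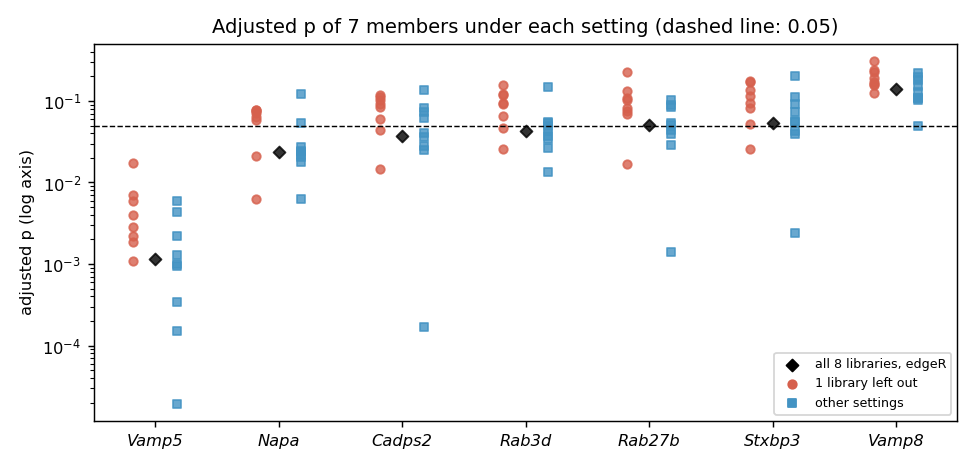
Adjusted p (log axis) of the 7 members whose groups did not overlap, with all 8 libraries in edgeR (diamonds), with 1 library left out (circles) and under the other settings (squares). The dashed line marks 0.05; all points of Vamp5 lie below it, and the other genes have points on both sides.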

How the data were processed

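RNA of sorted small intestinal tuft cells, 4 Chat-pos and 4 Chat-neg libraries, was amplified with SMARTer v4 reagents, made into Nextera XT libraries and read in single reads of 74 cycles, per the labels' protocols. These libraries do not mark strand and hold no molecular identifiers, so limits drawn from counts cover counting error only. The authors deposited raw counts per gene symbol in 1 table. Per the submitters' processing notes, GRCm38 was the build. No aligner, counting tool or annotation was named (not given in the sources used here). Of 53806 rows, 36 had no gene name and held 58.6% to 64.6% of all counts in Chat-pos and 67.8% to 88.4% in Chat-neg; they were left out. Rows sharing a symbol were summed. Exon lengths and positions came from GENCODE M21 (GRCm38). Unc13a, Syt4, Syt7, Syp, Syn1, Rab3a, Rab3b, Rab27a and Stx4a share exon bases with another gene and are uncertain.

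The test was edgeR 4.0.16, run in R 4.3.3 (TMM, filterByExpr, robust quasi-likelihood fit, group as the only term; SE from the difference and its F statistic). Fold changes are Chat-pos over Chat-neg. The test was also tried on simulated counts for the 8919 tested genes, where 12 of its 127 calls were false. It found only 8% of the genes given a 1.5-fold difference. The rate was 32% for a 2-fold difference and 94% for a 4-fold one. A member that did not pass may thus still differ by 1.5-fold, by 2-fold or by more. Every pair of same-gate libraries differed beyond counting error. The members and lists were chosen with earlier results of these data known. Named genes were all members, called genes and the 2 most abundant others of each further list, Chat, Slc18a3 and Il25; values of every library are given for called members and for the member of each role with the highest level per kb, and were added for Rims2. Calhm1, Prph and the single enteroendocrine markers other than Sct were named after their values were seen. Alternatives were 3 other scalings, 2 other filters, DESeq2 1.42.0, limma 3.58.1 voom with quality weights, a replicate block, and libraries left out.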

Additional observations from a re-analysis of the deposited data

Results flagged for a closer look

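Of 56 groups of 4 libraries examined, 2 for each of the 28 detected members, 3 had 1 library far from the other 3, by Dixon's criterion; chance alone flags about 1 in 20 groups. Chgb in Chat-neg replicate 4 stood at 345 CPM, with 0 to 8.92 CPM in the other Chat-neg libraries. Cadps in Chat-pos replicate 1 stood at 3.73 CPM, from 6 counts, with 0.448 to 0.842 CPM in the other Chat-pos libraries. Chga in Chat-pos replicate 1 stood at 8.71 CPM, from 14 counts, with 3.37 to 4.03 CPM in the other Chat-pos libraries.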

How the results depend on the processing

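With 1 library left out, 1 to 5 members were higher and 0 to 1 lower, against 3 and 1 with all libraries, and the numbers over all genes ran from 138 to 360 higher and from 110 to 309 lower, against 323 and 256. Both lowest values over all genes came without Chat-neg replicate 2, and the lower genes also dropped by over 1.5 times without Chat-pos replicate 3 (141), Chat-neg replicate 3 (163) or Chat-neg replicate 4 (124). Members higher were 1 without any one of Chat-pos replicates 2, 3 and 4 and Chat-neg replicates 2, 3 and 4. Of the other pathway genes 1 to 2 were higher. The members detected ran from 26 to 29. The higher members were 5 with RLE scaling, 1 with total count scaling, 6 with DESeq2 and 5 with limma-voom, and the lower members were 0 with no filter, 0 with the replicate block and 0 without the Paneth-rich libraries. Over all genes DESeq2 called 546 higher and 418 lower, limma-voom 402 lower, the unfiltered fit 143 lower and the fit without the Paneth-rich libraries 86 lower. Total count scaling moved the median of all genes to -0.14 on the log2 scale and gave 225 higher and 380 lower. Counting the unnamed rows in the library size left 17 members detected; a minimum of 1 CPM gave 39 and one of 10 CPM gave 21. Directions turned only in members that did not pass the test: Stx3 was 0.20 with no filter, 0.034 with DESeq2 and 0.15 without the Paneth-rich libraries, and -0.088 to 0.10 with 1 library left out. Stx4a was -0.018 with total count scaling and -0.19 without the Paneth-rich libraries, and -0.10 to 0.37 with 1 library left out. Vamp3 was -0.089 with total count scaling and -0.10 to 0.22 with 1 library left out. Rims2 was 0.14 with limma-voom, 0.10 with the replicate block and 0.052 without the Paneth-rich libraries, and -0.64 to 1.41 with 1 library left out. Unc13d was 0.13 with no filter and 0.021 with limma-voom, and -0.30 to 0.19 with 1 library left out. Scamp5 was -0.078 with total count scaling, -0.19 with limma-voom and -0.10 with the replicate block, and -0.31 to 0.36 with 1 library left out. Rab3b was -0.78 to 0.20 with 1 library left out. The causes were not tested. Under settings other than leaving out 1 library, 176 values of single members kept direction and side of the threshold, 9 lost a call and 8 gained one.

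The replicate numbers were not taken to pair the libraries, since the deviations of same-numbered libraries from their group means correlated at 0.12, 0.20, -0.02 and -0.04 for numbers 1 to 4. With the replicate block 2 members were higher, Vamp5 and Napa, and 290 genes were higher and 230 lower in all. Depth limits the low members: a library with 0 counts allows up to 1.18 to 1.71 CPM in Chat-pos, and up to 2.55 to 4.91 CPM in Chat-neg replicates 2 to 4 and 34.2 CPM in replicate 1.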
